A study of Homo sapiens with 6 samples.

Results

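NF-kappaB is a family of dimeric transcription factors, and the genes described here are 10 of its parts and targets. They are the subunit genes RELA, RELB, REL, NFKB1 and NFKB2, the inhibitor genes NFKBIA and NFKBIB, and the target genes TNFAIP3, BIRC3 and TNFRSF9. Each was found in the count table by its Ensembl identifier, so the 10 members stand among 64299 genes in all, of which 16243 were tested, and all 10 members passed the filter on low counts. They were put together because TNFRSF9 and RELB were higher in ERbeta libraries. The comparison below is therefore a description for these members, with no p-value of their own. How many of them fits across all genes called is given beside the share of all genes, and it cannot support the choice that was made from the same values. The library groups are 3 ERbeta libraries, from HEK293T cells given the ERbeta plasmid (also written ER-β), and 3 EV_Ctrl libraries, from HEK293T cells that received an empty vector with the same transfection reagent. The sample labels give HEK293T and the series description HEK293. By its title the series is about amyloid-forming proteins in the endoplasmic reticulum (ER). ER-β is not explained in the labels; going by what is known of the study, it stands for a designed β-sheet protein sent to the ER rather than for the estrogen receptor, and its own level was not analysed here.

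In resting cells, NF-kappaB dimers are held in the cytoplasm by inhibitor proteins of the IκB family. In the canonical pathway, receptors of tumour necrosis factor (TNF) or interleukin-1 activate the IκB kinase complex, the inhibitors are degraded and dimers with RELA or REL enter the nucleus. In the non-canonical pathway, the kinase NIK leads to processing of the NFKB2 product p100 to p52, the usual partner of RELB. Many inhibitors and several subunits are themselves targets, so that the pathway feeds back on itself. HEK293T is a transformed human embryonic kidney line in which NF-kappaB reporter genes are often assayed. Messenger RNA levels, as measured here, do not show degradation of an inhibitor, processing of p100 or entry of a subunit into the nucleus.

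ERbeta libraries held 13149304 to 16531368 counts in total, EV_Ctrl libraries 6833442 to 27101644. Genes expected of the cell line were present, among them VIM, KRT8, KRT18, CDH2 and NEFL, and the summed level of 9 such genes was 1861 to 2011 CPM (counts per 1e6 after TMM scaling, a trimmed mean of gene-wise ratios) in ERbeta and 1860 to 1942 CPM in EV_Ctrl. VIM alone made up 845 to 984 CPM of this in ERbeta and 839 to 906 CPM in EV_Ctrl. Of the 9, LHX1 and NEFM lay lower in every ERbeta library than in every EV_Ctrl library, a pattern seen in 8.48% of tested genes. LHX1 was at 17.1 to 20.6 CPM in ERbeta against 22.2 to 25.9 CPM in EV_Ctrl. NEFM was at 19.6 to 21.4 CPM against 21.7 to 23.9 CPM. PAX2 was at a log2 fold change of -0.55 ± 0.30 (SE). None of the 9 passed the test across all genes, but 0 of 16243 genes passed it, so nothing is read from this. TNFRSF9 is known as a gene of activated T cells, so markers of T cells and of other cells were looked at as well. The 8 T cell markers summed to 1.36 to 2.02 CPM in ERbeta and 1.77 to 2.91 CPM in EV_Ctrl, nearly all from CD8A and CD247, and CD3E and CD2 had 0 reads in all 6 libraries. The 4 B cell markers summed to 0.130 to 0.401 CPM in ERbeta and 0.174 to 0.490 CPM in EV_Ctrl. The 6 myeloid markers summed to 1.68 to 3.09 CPM in ERbeta and 2.22 to 2.44 CPM in EV_Ctrl. The 5 fibroblast markers summed to 18.4 to 25.1 CPM in ERbeta and 22.8 to 34.0 CPM in EV_Ctrl. Most of this sum came from COL1A1, at 13.5 to 22.2 CPM in ERbeta and 19.2 to 31.0 CPM in EV_Ctrl. COL3A1 and LUM were also detected, while COL1A2 had 0 reads in all 6 libraries. EV_Ctrl 2 stood apart from the other controls in its relation to GC content. Among 3882 tested genes whose longest transcript had a GC content under 42%, the median deviation of log2 CPM from the gene's own mean was 0.16, 0.11 and 0.39 in ERbeta 1, 2 and 3. It was -0.38, 0.12 and -0.33 in EV_Ctrl 1, 2 and 3.

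Most of the members searched share a sequence feature that played no part in the count comparison. RefSeq promoter sequences (GRCh38.p14) were found for 9 of the 10 members, all but RELB, with 14 start sites, and the 250 bases before each start were searched on both strands. The kappaB consensus, the 10-base motif that NF-kappaB dimers are known to bind, was present before 9 of the 14 member start sites (64.3%), against 5.21% of 35116 start sites of all genes. Counted by gene, at least 1 start had it in 8 of the 9 members, against 6.28% of 27305 genes. The narrower form of GGG and TTTCC with any 2 bases between them, which overlaps the consensus, was also present before 9 of the 14 member start sites, against 1.73% of all start sites, and in 8 of the 9 members. RELA was the member searched without a match in both searches. Because subunits, inhibitors and targets of NF-kappaB were chosen as such, a match is a description and not evidence that the site was used in these cells. Elements of ER stress were searched for in the same windows. Neither TGATGNAA, a core of elements bound by ATF4 and CHOP, nor the ER stress element, CCAAT and CCACG with any 9 bases between them, matched in the 14 member windows, and 3.14% and 0.074% of all start sites held them. At shares this low, no match in 14 windows was the likely outcome for any set of genes. Nothing is therefore read from it.

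The sequences below show the kappaB matches in their setting, on the strand of the gene, with the matches in capitals; those of TNFRSF9, REL and NFKBIB read on both strands. Stretches that lie in GENCODE 29 exons are cut to 30 bases around the matches, so that further NF-kappaB matches before both NFKB2 starts are not shown.
TNFRSF9, chr1:7940893-7940922, minus strand, a window from -83 to -54 of the RefSeq start: agctgtggtGGGAATTTCCCatgagacccc
REL, chr2:60881518-60881547, plus strand, from -56 to -27: gtcagccgcGGGAAATTCCCctcccgccag
NFKB1, chr4:102501300-102501329, plus strand, from -59 to -30: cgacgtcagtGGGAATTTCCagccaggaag
TNFAIP3, chr6:137867188-137867217, plus strand, from -71 to -42: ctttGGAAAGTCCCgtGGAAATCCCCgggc
NFKB2, chr10:102394490-102394519, plus strand, from -88 to -59: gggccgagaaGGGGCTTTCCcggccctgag
NFKB2, chr10:102395674-102395703, plus strand, a later start, from -31 to -2: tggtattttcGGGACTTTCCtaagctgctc
NFKBIB, chr19:38899863-38899951, plus strand, from -106 to -18: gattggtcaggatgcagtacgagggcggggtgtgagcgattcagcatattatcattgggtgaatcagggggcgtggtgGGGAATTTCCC
BIRC3, chr11:102317234-102317449, plus strand, from -250 to -35: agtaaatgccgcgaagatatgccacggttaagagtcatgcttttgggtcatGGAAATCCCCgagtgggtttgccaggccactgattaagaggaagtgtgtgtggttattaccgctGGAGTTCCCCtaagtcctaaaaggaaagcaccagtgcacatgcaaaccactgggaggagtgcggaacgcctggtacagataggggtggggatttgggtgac
NFKBIA, chr14:35404750-35404999, minus strand, from -250 to -1: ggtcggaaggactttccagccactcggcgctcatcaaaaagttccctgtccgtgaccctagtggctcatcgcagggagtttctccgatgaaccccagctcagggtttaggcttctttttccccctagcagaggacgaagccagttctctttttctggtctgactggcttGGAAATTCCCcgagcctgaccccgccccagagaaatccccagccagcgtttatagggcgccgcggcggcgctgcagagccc

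The comparison of ERbeta with EV_Ctrl asks how cells respond to the ER-β protein. TNFRSF9 encodes 4-1BB (CD137), a receptor of the TNF receptor superfamily that signals through TRAF proteins to NF-kappaB and is itself an NF-kappaB target. TNFRSF9 (ENSG00000049249.6, chromosome 1, 7915894 to 7943165, minus strand) had 70, 56 and 51 reads in ERbeta 1, 2 and 3, against 12, 24 and 15 reads in EV_Ctrl 1, 2 and 3. Its level was 4.32, 3.65 and 4.09 CPM in the ERbeta libraries, against 1.66, 0.905 and 1.31 CPM in the EV_Ctrl libraries. Every ERbeta library lay above every EV_Ctrl library, and EV_Ctrl 2, the deepest library, had the lowest level. The ERbeta mean was 4.02 ± 0.343 CPM and the EV_Ctrl mean 1.29 ± 0.379 CPM (SD, n = 3 each). This is a fold of 3.38, or a log2 fold change of 1.76 ± 0.25, where the error is a standard error (SE). By log2 fold change it ranked 18 of 16243 tested genes. The reads are few: the exact Poisson 95% interval was 2.76 to 4.74 CPM for ERbeta 2, the lowest ERbeta library, and 0.859 to 2.90 CPM for EV_Ctrl 1, the highest EV_Ctrl library, so these intervals overlapped. In bulk RNA, a gene raised in some of the cells and a gene raised in all of them cannot be told apart, which holds for every member.

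RELB was the subunit with the largest log2 fold change when all 6 libraries were used; without EV_Ctrl 2, REL was at 1.07 and RELB at 0.91, and in the authors' deposited table REL was also above RELB. RELB encodes the transactivating subunit of the non-canonical pathway. RELB (ENSG00000104856.11, chromosome 19, 45001430 to 45038198, plus strand) was at 12.7, 14.0 and 10.9 CPM in ERbeta 1, 2 and 3, against 5.26, 5.09 and 7.84 CPM in EV_Ctrl 1, 2 and 3. The groups did not overlap, and EV_Ctrl 3 was the highest control. The ERbeta mean was 12.5 ± 1.55 CPM and the EV_Ctrl mean 6.06 ± 1.54 CPM (SD, n = 3 each), with a log2 fold change of 1.06 ± 0.20 (SE) and rank 191 of the tested genes.

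REL encodes c-Rel, a transactivating subunit known best from lymphocytes. REL (chromosome 2, 60881521 to 60931610, plus strand) was at 21.6, 16.5 and 26.8 CPM in ERbeta 1, 2 and 3, against 10.1, 16.2 and 10.4 CPM in EV_Ctrl 1, 2 and 3. The groups stood apart only narrowly, by the small gap between ERbeta 2 and EV_Ctrl 2. The log2 fold change was 0.79 ± 0.24 (SE). REL has a GC content of 38.7%, and, like the low-GC genes as a whole, it was high in ERbeta 3, low in EV_Ctrl 1 and 3 and between these in EV_Ctrl 2. With an offset for GC content the log2 fold change of REL was 0.41 ± 0.14 (SE). It was 1.07 without EV_Ctrl 2, and 0.41 with EV_Ctrl 2 as the only control. Whether GC content accounts for the difference in REL was not tested.

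The other 3 subunits differed little. RELA (chromosome 11, 65653596 to 65663094, minus strand) encodes p65, the main transactivating subunit of the canonical pathway. RELA was at 91.2, 88.5 and 68.0 CPM in ERbeta 1, 2 and 3, against 88.1, 72.6 and 94.5 CPM in EV_Ctrl 1, 2 and 3. The groups overlapped, with ERbeta 3 and EV_Ctrl 2 low. NFKB1 (chromosome 4, 102501329 to 102617302, plus strand) encodes p105, the precursor of the DNA-binding subunit p50. NFKB1 was at 35.6, 34.2 and 29.4 CPM in ERbeta and at 35.5, 27.7 and 35.5 CPM in EV_Ctrl. Its lowest values were again those of ERbeta 3 and EV_Ctrl 2, and the groups overlapped. NFKB2 (chromosome 10, 102394110 to 102402529, plus strand), which encodes p100, was at 25.2, 25.9 and 23.6 CPM in ERbeta and at 26.5, 22.0 and 25.6 CPM in EV_Ctrl. The log2 fold changes were -0.04 ± 0.15 for RELA, 0.01 ± 0.14 for NFKB1 and 0.02 ± 0.12 for NFKB2 (SE). Each of these signs turned in some settings; with library size only as the scaling they were -0.14, -0.08 and -0.08, and with the GC offset 0.14, 0.14 and 0.25. No direction is therefore given for these 3 genes.

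**Figure D1:**
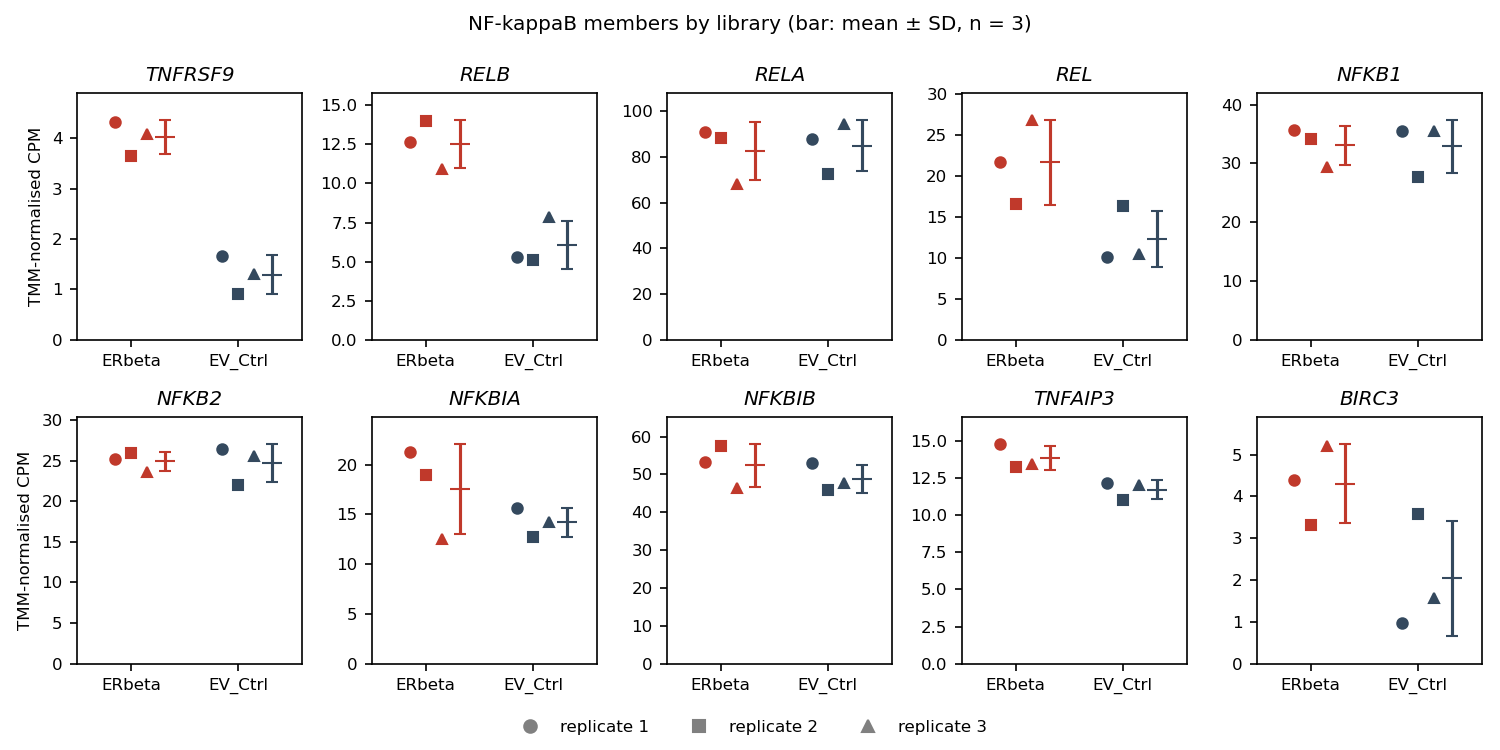
Level of each member in TMM-normalised CPM (vertical axes, from 0) in the ERbeta and EV_Ctrl libraries; symbols mark the replicate number and bars the mean ± SD of 3 libraries. TNFRSF9 and RELB stand apart between groups, while EV_Ctrl 2 (square) lies with the ERbeta libraries for BIRC3 and close to them for REL.

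RELB also took a larger share of the subunit messenger RNA in ERbeta. CPM was divided by an annotated exon length for each gene, such as 13170 bases for REL and 3035 bases for RELB. Which transcripts were expressed was not tested, and the annotation used for counting is not given. Shares and ratios between genes therefore depend on the lengths used, and a gene whose expressed transcript is shorter than its length here is understated. Of the summed CPM per kb of the 5 subunits, RELB made up 12.3%, 13.9% and 12.8% in ERbeta 1, 2 and 3, against 5.74%, 6.57% and 8.06% in EV_Ctrl 1, 2 and 3. These shares did not overlap. RELA held the largest share in every library, 49.3%, 48.6% and 44.4% in ERbeta and 53.4%, 52.0% and 53.9% in EV_Ctrl, and its shares did not overlap either, which a larger share of another subunit makes necessary in part. REL held 3.76% to 7.26% in ERbeta and 2.48% to 4.83% in EV_Ctrl. The ratio of RELB to NFKB2, the subunits of the non-canonical dimer, was 0.742, 0.798 and 0.683 in ERbeta, against 0.294, 0.342 and 0.452 in EV_Ctrl, on the CPM per kb scale. All 3 ERbeta ratios were above the highest control ratio. These shares and ratios restate the counts that chose RELB and are no separate evidence.

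**Figure D2:**
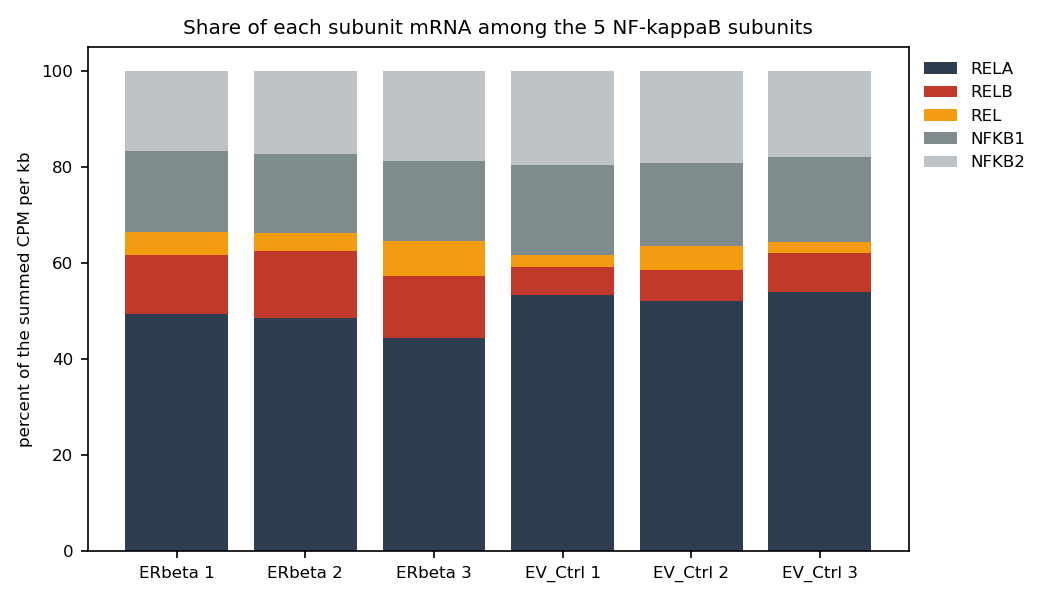
Share of each subunit in the summed CPM per kb of the 5 NF-kappaB subunits (vertical axis, percent) in each library, ERbeta left and EV_Ctrl right. The RELB segment is 12.3% to 13.9% in ERbeta and 5.74% to 8.06% in EV_Ctrl.

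The groups overlapped for both inhibitors, and NFKBIB differed little. NFKBIA (chromosome 14, 35401511 to 35404749, minus strand) encodes IκBα, which is resynthesised after NF-kappaB activation and ends the response. NFKBIA was at 21.2, 19.0 and 12.5 CPM in ERbeta 1, 2 and 3, against 15.7, 12.7 and 14.2 CPM in EV_Ctrl 1, 2 and 3. ERbeta 1 and 2 were the highest libraries and ERbeta 3 the lowest of all 6. The log2 fold change was 0.32 ± 0.21 (SE), and it was 0.15 without ERbeta 1 and 0.51 without ERbeta 3. NFKBIB (chromosome 19, 38899700 to 38908893, plus strand), which encodes IκBβ, was at 53.2, 57.6 and 46.5 CPM in ERbeta, against 52.9, 45.9 and 47.7 CPM in EV_Ctrl. Its log2 fold change was 0.10 ± 0.12, smaller than its SE. It was 0.009 with library size only as the scaling, and 0.31 with the GC offset. NFKBIB overlaps SIRT2 on the opposite strand, which had 1086 to 3822 reads a library, and the strand setting of the counting is not given in the sources used here, so the NFKBIB count is uncertain.

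The target genes differed in how far they stood apart between the groups. TNFAIP3 (chromosome 6, 137867188 to 137883312, plus strand) encodes A20, a ubiquitin-editing enzyme that dampens NF-kappaB signalling. TNFAIP3 was at 14.8, 13.3 and 13.5 CPM in ERbeta 1, 2 and 3, against 12.2, 11.01 and 12.02 CPM in EV_Ctrl 1, 2 and 3. The groups did not overlap, but the difference was small, at a log2 fold change of 0.25 ± 0.12 (SE) and 0.35 with the GC offset. An antisense gene, AL357060.1, overlaps TNFAIP3 and had 5 to 30 reads a library. BIRC3 (chromosome 11, 102317450 to 102339403, plus strand) encodes cIAP2, a ubiquitin ligase of TNF receptor complexes. BIRC3 had 71, 51 and 65 reads in ERbeta 1, 2 and 3, against 7, 95 and 18 reads in EV_Ctrl 1, 2 and 3. That is 4.38, 3.32 and 5.21 CPM in ERbeta, against 0.970, 3.58 and 1.57 CPM in EV_Ctrl. EV_Ctrl 2 lay above ERbeta 2, so the groups overlapped, while the other controls were far below every ERbeta library. The log2 fold change of 0.87 ± 0.40 was 1.69 without EV_Ctrl 2 and 0.26 with EV_Ctrl 2 as the only control. BIRC3 has the lowest GC content of the 10 members, 34.8%, and with the GC offset its log2 fold change was 0.38 ± 0.25. TNFRSF9 and RELB, at a GC content of 43.9% and 65.4%, were at 1.73 and 1.33 with the same offset.

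**Figure D3:**
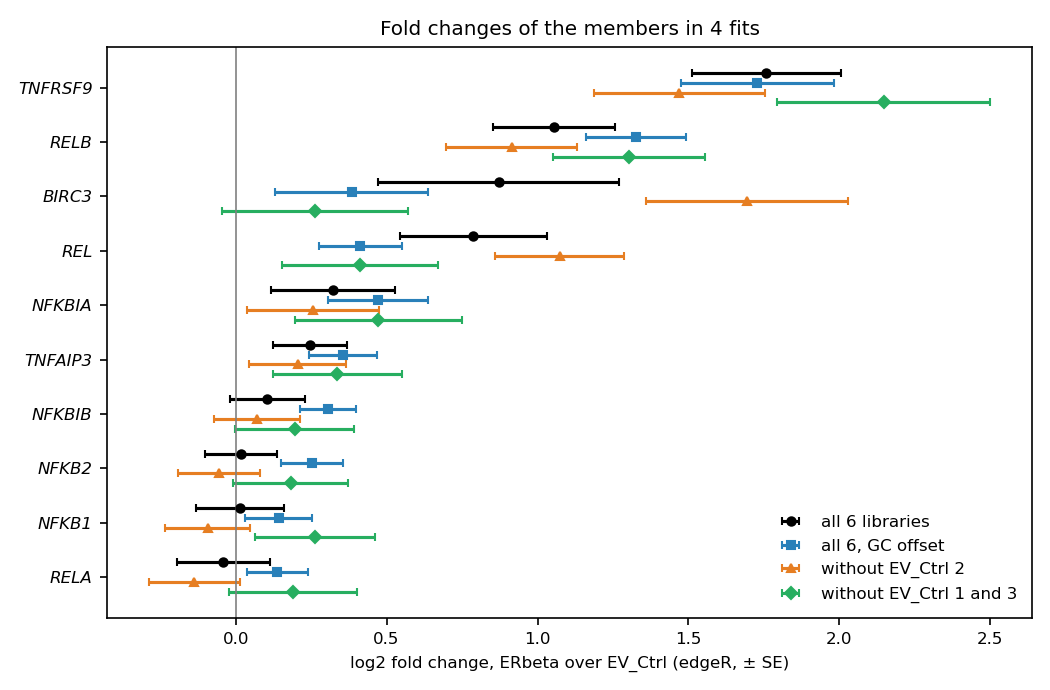
Log2 fold change of each member, ERbeta over EV_Ctrl, with its standard error (horizontal axis), from edgeR with all 6 libraries, with a GC offset, without EV_Ctrl 2, and with EV_Ctrl 2 as the only control. TNFRSF9 and RELB lie at 0.91 or above in all 4 fits, while BIRC3 runs from 0.26 to 1.69 and REL from 0.41 to 1.07.

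Across the whole table, the edgeR quasi-likelihood test, adjusted by the Benjamini-Hochberg method, called 0 of 16243 genes (0%), and 0 of the 10 members. At an unadjusted p under 0.05 it had 2018 genes, or 12.4%, and 3 of the members, TNFRSF9, RELB and REL. DESeq2 called 0.279% of the genes for which it gave an adjusted p, among them 2 members, TNFRSF9 and RELB, and limma-voom called 1 gene and no member. Without a filter on low counts edgeR called 0.167% of genes and 2 members, TNFRSF9 and RELB. With the GC offset it called 0.137% of genes and 1 member, RELB. At an unadjusted p under 0.05 the fit with the GC offset had 1777 of 16091 genes and 7 of the members. Without EV_Ctrl 2 edgeR called 2324 of 16259 genes (14.3%) and 4 members, TNFRSF9, RELB, REL and BIRC3. These 4 were higher in ERbeta, as were 13.5% of the genes tested in that fit, or 94.6% of the genes called. Since the members were chosen from this contrast, nothing is read from their counts. For 4 members, TNFRSF9, RELB, REL and TNFAIP3, every ERbeta library lay above every EV_Ctrl library, a pattern seen in 10.2% of tested genes. The reverse was seen for 0 members and 8.48% of tested genes. The median log2 fold change of the 10 members was 0.28 and 9 were positive, while over all tested genes the median was -0.01 and 48.3% were positive. In the authors' deposited table, whose values are on a narrower scale and end at 1.46, the log2 fold change was 1.00 for TNFRSF9, 0.50 for REL, 0.48 for BIRC3 and 0.47 for RELB, followed by 0.29 for NFKBIA.

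The order of the members by level was nearly the same in both groups. This order depends on the exon lengths used, as do the shares above. On the CPM per kb scale, the uncertain count of NFKBIB, which overlaps SIRT2, was highest, at 22.6 ± 2.43 in ERbeta and 21.0 ± 1.57 in EV_Ctrl (SD, n = 3 each). RELA followed at 15.1 ± 2.32 and 15.6 ± 2.06. The ranges of NFKBIB and RELA did not overlap in either group. NFKBIA, NFKB2 and NFKB1 came next and were not separated from each other in either group, with means from 5.28 to 7.40 in ERbeta and from 5.26 to 5.98 in EV_Ctrl. RELB was at 4.13 ± 0.511 in ERbeta, above TNFAIP3 at 2.74 ± 0.166, and at 1.998 ± 0.507 in EV_Ctrl, where its range overlapped that of TNFAIP3 at 2.32 ± 0.126. REL was at 1.64 ± 0.392 in ERbeta and 0.932 ± 0.262 in EV_Ctrl. BIRC3 and TNFRSF9 were lowest and overlapped in both groups. TNFRSF9 was at 0.635 ± 0.0542 in ERbeta and 0.204 ± 0.0599 in EV_Ctrl, and BIRC3 was at 0.573 ± 0.126 and 0.271 ± 0.182.

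The genes with profiles most like those of TNFRSF9 and RELB were looked for among 12496 protein-coding tested genes. These had a mean log2 CPM of at least 1, so weaker genes were not searched. Likeness was the smallest root mean square difference between log2 CPM profiles centred over the 6 libraries. For RELB the most similar genes were SH2D3C, an SH2 domain protein, at 0.089, the histone gene H2BC5 at 0.183 and UCP3, a mitochondrial uncoupling protein, at 0.185. SH2D3C was at 7.53, 8.86 and 6.74 CPM in ERbeta 1, 2 and 3, against 3.46, 3.39 and 4.35 CPM in EV_Ctrl 1, 2 and 3, so that, as for RELB, ERbeta 2 was the highest ERbeta library and EV_Ctrl 3 the highest control. For TNFRSF9 they were the intestinal glucosidase gene MGAM at 0.253, the collagen gene COL20A1 at 0.275 and PLA2G4C, a cytosolic phospholipase A2, at 0.280. MGAM was at 3.77, 3.39 and 3.37 CPM in ERbeta, against 1.25, 1.13 and 0.871 CPM in EV_Ctrl. With 6 libraries, closeness of profiles is a description.

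The rest of the pathway was followed through 5 lists of other genes. With the GC offset the medians of these lists lay between 0.05 and 0.18, beside 0.05 over all tested genes. For ligands, 3 of 12 were tested and 0 passed, with a median log2 fold change of 0.04 beside -0.01 over all tested genes. LTA, lymphotoxin alpha, was at 1.73, 1.63 and 1.44 CPM in ERbeta 1, 2 and 3, against 0.416, 0.603 and 1.57 CPM in EV_Ctrl 1, 2 and 3. EV_Ctrl 3 lay within the ERbeta range, and the log2 fold change was 0.92 ± 0.41 (SE, edgeR adjusted p 0.400). TNFSF9, the ligand of the TNFRSF9 product, was at 2.22, 2.74 and 2.73 CPM in ERbeta, against 2.36, 2.75 and 2.18 CPM in EV_Ctrl, a log2 fold change of 0.04 ± 0.20. Its groups overlapped, unlike those of the receptor gene. TNFSF12, the ligand TWEAK, was at -0.13 ± 0.27, and 0.04 with the GC offset. TNF, chosen with its values in view, was too low to be tested, with 7, 5 and 5 reads in ERbeta and 0, 1 and 1 in EV_Ctrl.

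For receptors, 13 of 20 were tested, 5 were positive, the median was -0.11 and 0 passed. TNFRSF12A, the TWEAK receptor, was at 34.9, 29.2 and 25.4 CPM in ERbeta 1, 2 and 3, against 21.2, 21.2 and 25.7 CPM in EV_Ctrl 1, 2 and 3. ERbeta 3 lay below EV_Ctrl 3, so the groups overlapped, and the log2 fold change was 0.40 ± 0.16 (edgeR adjusted p 0.397), or 0.65 with the GC offset. TNFRSF25, death receptor 3, was lower in every ERbeta library than in every EV_Ctrl library, at -0.53 ± 0.22 (adjusted p 0.397), and IL1RAP, the accessory chain of the interleukin-1 receptor, was at 0.42 ± 0.19 (adjusted p 0.401). With the GC offset they were at -0.37 and 0.24. Neither passed in edgeR's test.

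For adaptors and kinases all 27 were tested, 14 were positive, the median was 0.003 and 0 passed. In 5 of them every ERbeta library lay above every EV_Ctrl library and in 3 below, beside 10.2% and 8.48% of tested genes. At an unadjusted edgeR p under 0.05, 6 were higher and 2 lower, beside 12.4% of tested genes either way. The lower ones, chosen with their values in view, were TRAF1 at -0.35 ± 0.13 and IKBKE at -0.51 ± 0.19. With the GC offset they were at -0.19 and -0.33. Smallest in p were MAP3K7 (the kinase TAK1) at 0.58 ± 0.20, TAB2, its ubiquitin-binding partner, at 0.44 ± 0.16 and CHUK (IKKα) at 0.57 ± 0.21, each with an edgeR adjusted p of 0.397. MAP3K7 was at 130, 126 and 152 CPM in ERbeta 1, 2 and 3, against 73.3, 121 and 77.5 CPM in EV_Ctrl 1, 2 and 3. Here EV_Ctrl 2 was close to the ERbeta libraries, as for REL and BIRC3. With the GC offset these log2 fold changes were 0.21 for MAP3K7, 0.11 for TAB2 and 0.05 for CHUK. Without EV_Ctrl 2, 8 of the 81 tested genes of the 5 lists passed (9.88%), a smaller share than the 14.3% of all genes in that fit. They were BIRC2, MAP3K7, TAB2, CHUK, MALT1, TBK1, TAX1BP1 and TNFAIP8. The kinase gene of the non-canonical pathway, MAP3K14 (NIK), chosen with its values in view, was at 0.003 ± 0.20, and 0.18 with the GC offset.

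For other inhibitors and modulators all 20 were tested, 8 were positive, the median was -0.04 and 0 passed. NFKBIZ, an atypical IκB protein of the nucleus, was at 8.89, 8.73 and 7.94 CPM in ERbeta 1, 2 and 3, against 6.79, 6.90 and 6.62 CPM in EV_Ctrl 1, 2 and 3. These groups did not overlap, and the log2 fold change was 0.33 ± 0.13 (edgeR adjusted p 0.397), or 0.37 with the GC offset. NKIRAS1, a Ras-like protein that binds IκB, was at 0.41 ± 0.16, and 0.09 with the GC offset. TAX1BP1, an adaptor of A20, was at 0.75 ± 0.32 and 0.81 with the GC offset, but EV_Ctrl 2 at 200 CPM lay inside the ERbeta range of 196 to 237 CPM, against 90.1 and 83.0 CPM in EV_Ctrl 1 and 3. Among other target genes 19 of 32 were tested, 9 were positive, the median was -0.01 and 0 passed. SOD2 was untested because its symbol matched no row of the counts, so its level is unknown here. Smallest in p were TNFAIP8, an apoptosis regulator, at 0.34 ± 0.16, the chemokine gene CCL5 at -0.49 ± 0.27 and IRF1, an interferon regulatory factor, at -0.35 ± 0.19 (adjusted p 0.408 to 0.459). TNFAIP8 was at 24.8 to 26.0 CPM in ERbeta, against 17.5, 24.7 and 17.3 CPM in EV_Ctrl 1, 2 and 3, so that EV_Ctrl 2 lay beside the ERbeta libraries. With the GC offset the log2 fold changes were 0.10 for TNFAIP8, -0.38 for CCL5 and -0.19 for IRF1. IRF1 was at 12.5, 11.7 and 11.5 CPM in ERbeta, against 13.7, 12.1 and 19.8 CPM in EV_Ctrl, with overlapping groups. Of the cytokine targets, IL6 had at most 3 reads in any library and CXCL8 at most 12, both chosen with their values in view.

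**Figure D4:**
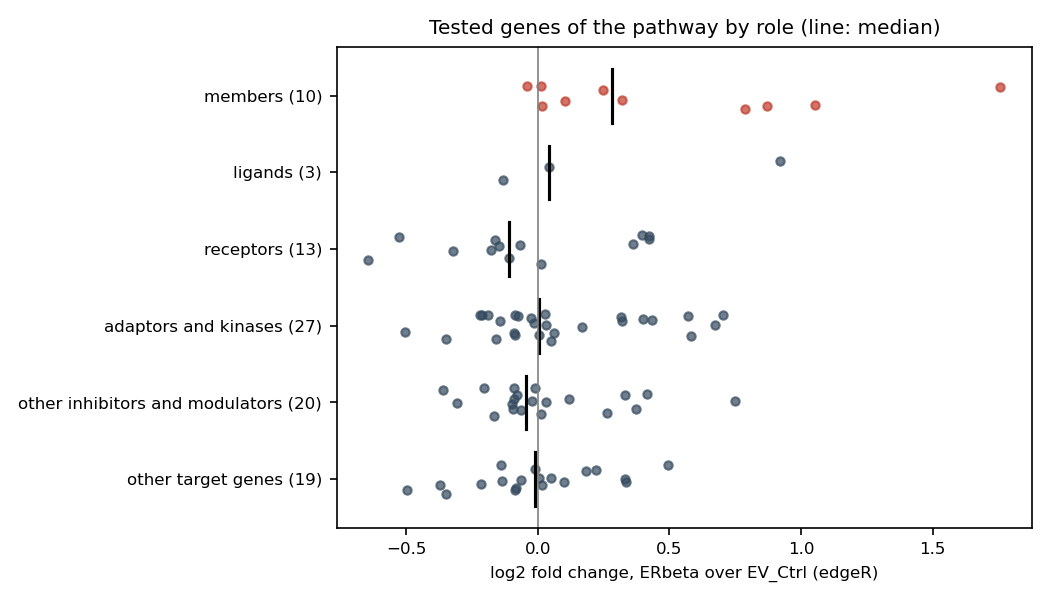
Log2 fold change, ERbeta over EV_Ctrl, of every tested gene of the pathway by role (horizontal axis), with the number of tested genes in brackets and a line at each median. The 10 members have a median of 0.28, and the medians of the 5 other lists lie between -0.11 and 0.04. With the GC offset, not drawn, they are 0.37 and between 0.05 and 0.18. The members were put together because TNFRSF9 and RELB were higher in this contrast, so nothing is read from the difference between these medians.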

How the data were processed

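RNA of 3 ERbeta and 3 EV_Ctrl libraries of HEK293T cells was sequenced from stranded mRNA libraries, per the labels. Per the submitters' processing notes, the tools were TopHat2, featureCounts and DESeq2 and the build was hg38. Tool versions, annotation and strand setting were not given in the sources used here. The deposited table holds the authors' raw read counts for 64299 genes. A second deposited table holds the authors' comparison: per the file headers, a mean signal after size factors, log2 fold changes, 2 scores (their standard errors and Wald statistics) and p-values. In that deposited table, 8079 of the 33813 genes with 0 reads in all 6 libraries had a mean above 0, so it was not computed from these 6 columns alone, and it was not used as input to a test. The member genes and gene lists were chosen with earlier results of these data known.

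Genes were kept with filterByExpr (minimum count 10, minimum total 15), which left 16243, scaled by TMM and fitted with edgeR 4.0.16 in R 4.3.3 (functions glmQLFit and glmQLFTest), group as the only term, Benjamini-Hochberg adjustment over all tested genes and a threshold of 0.05. Standard errors came from the F statistic. CPM is per 1e6 TMM-normalised counts. Total counts per library ranged from 6833442 to 27101644, and exact Poisson 95% intervals of single counts cover counting error only. Whether replicates are separate cultures is not in the labels, and a p-value here reflects the spread between libraries, possibly technical. No 2 libraries of a group agreed within counting noise (chi-square per degree of freedom at least 4.77). Alternatives were DESeq2 1.42.0 (size factors, and its own test on all genes), limma-voom (limma 3.58.1), library size only, no filter, a replicate block, a per-library loess offset (span 0.5) on gene GC content (longest GENCODE 29 transcript), and leaving out libraries. All 10 members are named. From each pathway list the 3 tested genes with the smallest p are named, and for TNFRSF9 and RELB the 3 protein-coding genes with the most similar profile; any other gene is marked as chosen with its values in view. Coordinates of genes are from GENCODE 29 on GRCh38 (hg38), and promoter sequences from RefSeq on GRCh38.p14. The main fit and some of the alternatives were run on simulated counts. The simulated fold changes were larger than those of the members in the main fit. There was no GC trend and no outlying library in them. The promoter search, shares and profiles were not tested in this way.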

Additional observations from a re-analysis of the deposited data

How the results depend on the processing

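With all 6 libraries edgeR called 0 genes, 0 members and 0 genes of the 5 pathway lists. Without a filter on low counts it called 51 genes (0.167%) and 2 members, TNFRSF9 and RELB. DESeq2's test called 52 genes and the same 2 members, limma-voom called 1 gene, and the GC offset gave 22 genes and 1 member, RELB. Leaving out 1 library gave 0 to 2324 genes, 0 to 4 members and 0 to 8 pathway genes, and every such call came without EV_Ctrl 2, where 14.3% of all genes and 9.88% of tested pathway genes passed; the cause was not tested. With the replicate block 0 genes were called, 1814 at an unadjusted p under 0.05, and with block and GC offset together 0. Deviations of libraries with the same number correlated at 0.233, -0.136 and -0.152, and those with different numbers at -0.366 to 0.36. These values show no pairing by number. Whether libraries of the same number were handled together cannot be told from them. Of 150 log2 fold changes of members in other settings, 145 moved by less than a spread set for each member. This spread was the square root of the summed variances of log2 CPM in both groups, so it is wider than that of either group. BIRC3 varied widely between controls, and its moves from 0.87 to 1.69 and to 0.26 counted as within it. The tally is therefore no measure of stability. The sign turned in 5 of 15 settings for RELA and in 4 each for NFKB1 and NFKB2. TNFRSF9 ranged from 1.47 to 2.15 and RELB from 0.91 to 1.35. Counts of 7 to 24 reads limit TNFRSF9 and, in 2 of 3 controls, BIRC3.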
